A study of Mus musculus with 3 samples.

Results

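In the islets taken 5 weeks after *Taf4* inactivation, 431 of 11229 cell barcodes carried insulin and glucagon transcripts together. A barcode tags the RNA captured in 1 droplet, and a UMI (unique molecular identifier) tags 1 captured transcript. The members, called double barcodes here, were chosen by their hormone counts: they held *Ins2* at 15% or more and *Gcg* at 5% or more of their UMIs, with *Sst* under 1%. They made up 3.84% of the library (exact binomial interval 3.49 to 4.21, which like all intervals below is a 95% interval that covers counting error only). The study asked what the loss of Taf4, a subunit of the general transcription factor TFIID, does to islet cells. Mutant animals (*Taf4* b-/-) carried floxed *Taf4* alleles and the Ins1::Cre-ERT2 transgene, a Cre recombinase driven in beta cells and active after tamoxifen, which was injected on 3 days at 11 to 13 weeks of age. The labels call them TAF4 KO and the control Wild type (WT), all on strain C57/Bl6. Controls of the study carried the same driver with intact *Taf4* and received tamoxifen, but the labels do not give this for the WT animal used here. Each condition was 1 library, from 300 islets of a single male in WT and 300 islets of 2 pooled males for each mutant time (1 or 5 weeks), so genotype, animal and library cannot be told apart. Recombination relied on *Ins1*, so alpha and delta cells were not the target of the deletion.

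Beta cells of the islet make insulin, which lowers blood glucose, and alpha cells make glucagon, which raises it. The cell types are held apart by transcription factors, with Pdx1, Nkx6-1 and Mafa in mature mouse beta cells and Irx1 and Irx2 in alpha cells. A droplet with both hormones can hold a cell that makes both or more than 1 cell, and a barcode alone does not tell these apart.

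The double barcodes were compared with single barcodes of the same library. A single beta barcode held *Ins2* at 20% or more, *Gcg* under 3% and *Sst* under 2%, which 5307 barcodes met. A single alpha barcode held *Gcg* at 15% or more, *Ins2* under 10% and *Sst* under 2%, which 2817 barcodes met. Of the other barcodes, 1224 (10.9%) fell in no hormone class. The hormone shares follow from these rules and are given as a description. *Ins2* ran around a median of 36.8% in double barcodes (5th to 95th percentile 16.6 to 53.4%), against 58.1% in single beta and 3.11% in single alpha barcodes. *Gcg* ran around a median of 13.9% (5.79 to 28.0%), against 40.5% in single alpha and 0.0704% in single beta barcodes. Single delta barcodes, which should make neither hormone, held *Sst* at 5% or more and *Ins2* and *Gcg* each under 10%, which 1133 barcodes met. Their medians were 4.98% for *Ins2* and 0.233% for *Gcg* at a median of 1125 UMIs. This rule caps both hormones, *Ins2* under the 15% that defines a double barcode, so these values too are a description.

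**Figure D1:**
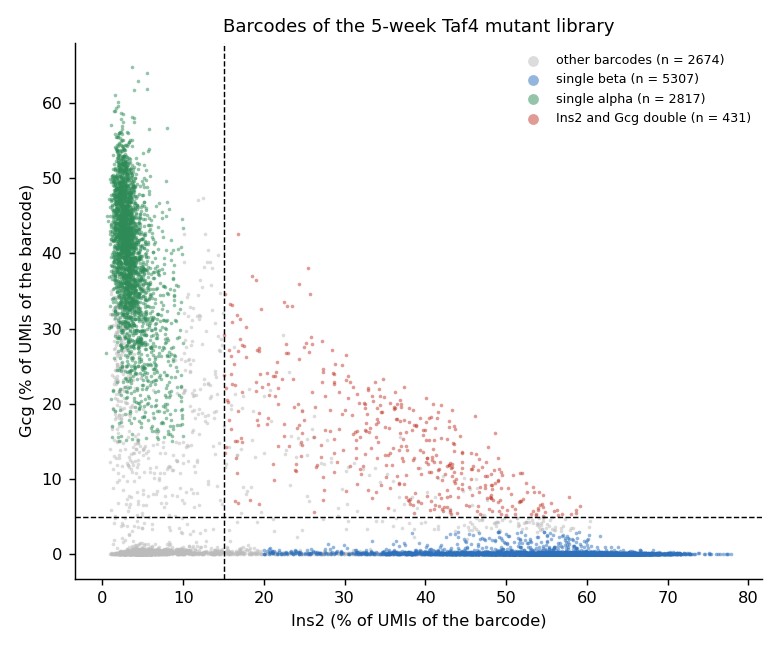
Each point is 1 barcode of the 5-week library, with *Ins2* (x axis) and *Gcg* (y axis) as a percentage of its UMIs; dashed lines mark 15% *Ins2* and 5% *Gcg*. The 431 double barcodes (red) lie on a band between the 2817 single alpha (green) and the 5307 single beta barcodes (blue), and the grey points inside the dashed lines have *Sst* at 1% or more.

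Barcodes ran without a gap from the beta class into the double class, at low counts. Among barcodes with *Ins2* at 15% or more and *Sst* under 1%, 4948 had *Gcg* under 0.5%, 47 had 2 to 3%, 46 had 3 to 4% and 41 had 4 to 5%. Above the limit, 30 had 5 to 6%, and the count was 109 between 10 and 15% and 17 between 30 and 50%. Just inside the *Gcg* limit (5 to 6%) the 30 barcodes had a median of 7723 UMIs, and just outside (4 to 5%) the 41 barcodes had 6141. Just inside the *Ins2* limit (15 to 18%) the 38 barcodes had a median of 2089 UMIs, and just outside (12 to 15%) the 46 barcodes had 2081.

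Double barcodes were counted mainly in the 5-week table. The WT library held 13 of 12000 such barcodes (0.108%, 0.0577 to 0.185) and the 1-week library 8 of 2295 (0.349%, 0.151 to 0.686). The 1-week library was smaller, with 1138 single beta and 166 single alpha barcodes by the rules above, against 5307 and 2817 at 5 weeks. Fewer pairs of them were possible there, so the shares do not measure a change with time. The authors removed WT cells with high hormones of more than 1 class and called doublets, and no such step is stated for the mutant libraries, so the WT share was counted after that removal. The 5-week and WT tables shared 33 barcode sequences, of which 2 belonged to double barcodes, and the 5-week and 1-week tables shared 5, of which 0 did. With fewer than 50 double barcodes each, the WT and 1-week tables were not compared with a mix.

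By the median, double barcodes held more transcripts than single barcodes and fewer than a beta and an alpha barcode added together. Their median was 4143 UMIs and 1010 detected genes. Single beta barcodes had medians of 3902 UMIs and 792 genes, and single alpha barcodes 1815 UMIs and 585 genes. The summed medians of beta and alpha came to 5717 UMIs, of which the double median was 72.5%; the double mean, 4452 UMIs, was below the single beta mean of 5008 and 64.3% of the summed means. Without *Ins1*, *Ins2*, *Gcg* and *Sst*, called non-hormone UMIs below, the double median of 1904 was 76.2% of the summed medians. Depth ran from 983.5 UMIs at the 5th to 8943 at the 95th percentile, and 66 double barcodes (15.3%) held fewer UMIs than the median single alpha barcode. Mitochondrial transcripts made up a median of 3.11% of UMIs, between single alpha (2.24%) and single beta (3.16%).

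**Figure D2:**
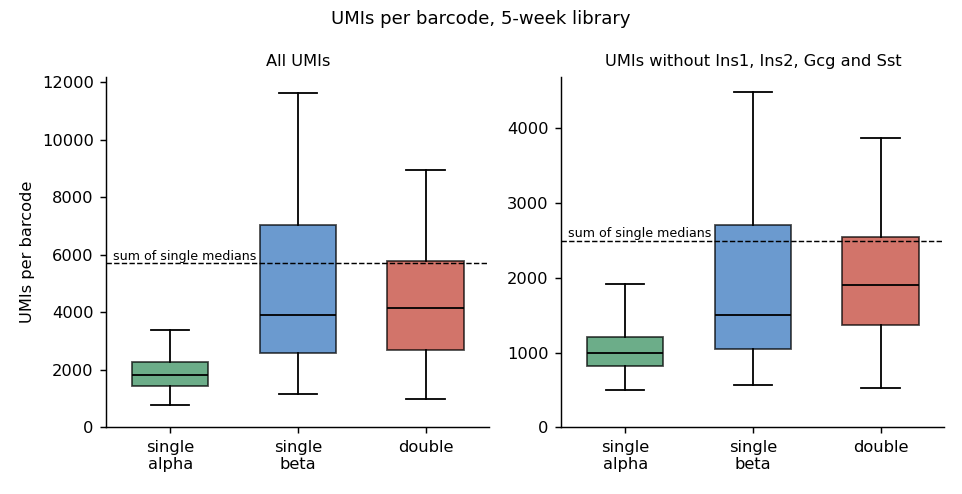
UMIs per barcode in single alpha (n = 2817), single beta (n = 5307) and double barcodes (n = 431), for all UMIs (left) and without the 4 hormone genes (right); boxes span the quartiles with the median as a line, whiskers the 5th and 95th percentiles, and the dashed line is the sum of the 2 single medians. The double median lies above both single medians and under the dashed line in both panels.

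The transcripts of double barcodes were set against a computed mix of beta and alpha barcodes. The non-hormone UMIs of the class were fitted as a share w of the single beta profile and a share 1 − w of the single alpha profile, over all non-hormone genes together. The beta share came to 56.6% of non-hormone UMIs, or 65.0% of all UMIs. The 4 hormones took no part in the fit, but *Ins2*, *Gcg* and *Sst* chose the classes, so their values beside the mix are a description. *Ins2* was counted at 39.4% of all UMIs, where the mix gave 39.0%, and *Gcg* at 13.6%, where it gave 14.4%. *Ins1* was counted at 1.45% and given by the mix at 1.53%. *Sst*, which the rule caps, was at 0.0446% against 0.0833%. Read 1 gene at a time, the 42 genes at least 4-fold higher in beta than in alpha barcodes gave a median beta share of 56.9% (quartiles 50.7 and 64.8%), and the 69 genes at least 4-fold higher in alpha gave 55.2% (50.5 and 59.2%).

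Of 2600 genes with at least 50 UMIs counted in double barcodes or given by the mix, 2583 lay within 1.5-fold of the mix. Levels are counts per 1000000 non-hormone UMIs (CPM below), and double over mix is the log2 ratio of the level in double barcodes to the level of the mix. With 1 library no test was made, and a gene was called where this ratio passed 1.5-fold. Higher than the mix were 7 genes (0.269%) and lower 10 (0.385%), 17 or 0.654% in all. With the ratios centred on their median, which was 0.03, the split was 3 higher and 13 lower. By comparison, 302 genes (11.6%) passed 1.5-fold between double and single beta barcodes, 564 (21.7%) between double and single alpha, and 965 (37.1%) between the single classes. Across genes, which are not independent replicates, log2 levels in double barcodes correlated with the mix at r = 0.991, with single beta at 0.910 and with single alpha at 0.923. The weight was fitted to these same UMIs, and each single class alone was among the mixes the fit could choose. That the mix lay closer than either single class was therefore largely fixed in advance.

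**Figure D3:**
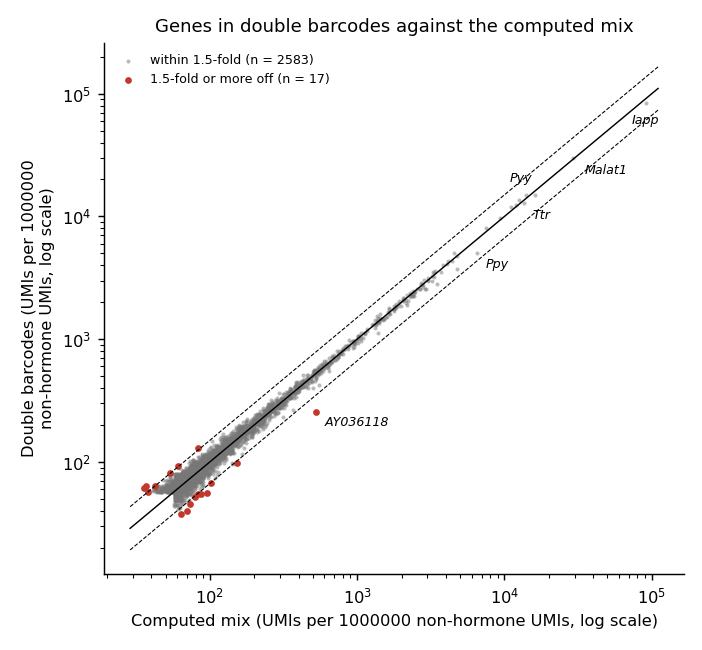
Level of each of the 2600 tested genes in double barcodes (y axis) against the computed mix (x axis), in CPM of non-hormone UMIs on log axes; the solid line marks equal levels, dashed lines 1.5-fold, and red points the 17 genes at 1.5-fold or more. *AY036118* is the red point farthest from the line, and genes above 1000 CPM lie along it.

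The spread around the mix narrowed with depth. The SD of the log2 ratio was 0.20 for the 2051 genes with under 200 UMIs from the mix, 0.12 for the 440 genes with 200 to under 1000 and 0.10 for the 109 genes with 1000 or more. The level of the mix lay inside the Poisson interval of the count for 2337 of 2600 genes (89.9%). Among the 109 most counted genes it did so for 65 (59.6%), and none of these passed 1.5-fold, the largest deviation being *Ppy* at -0.37. *Ppy*, which encodes pancreatic polypeptide, had 4386 UMIs (4257 to 4518) where the mix gave 5667.

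Tested genes of the beta list lay between -0.28 and 0.20 of the mix on the log2 scale. The list also holds *Slc30a8*, at 139 CPM in single beta and 775 in single alpha barcodes, and *Abcc8*, at 320 and 305. Of 14 tested genes of the beta list, 0 passed 1.5-fold in either direction, where 0.654% of all tested genes did, so a count of 0 in this or any list below is near the background. The list had a median of -0.11, against 0.03 over all tested genes, and the mix lay inside the interval for 11 of the 14. *Iapp*, which encodes the amyloid peptide released with insulin, was at 84281 CPM in double, 155398 in single beta and 9085 in single alpha barcodes, and the mix gave 91930. *G6pc2*, the islet glucose-6-phosphatase, had 155 UMIs (132 to 181) against 189 from the mix. *Ero1lb*, an oxidoreductase that helps insulin to fold, had 397 (359 to 438) against 454. These 3 lay under the mix by more than the counting interval, by at most 0.28 on the log2 scale. *Hadh*, *Pcsk1* and *Ppp1r1a* lay under it by between 0.14 and 0.17 with intervals that held the mix.

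Beta transcription factors were counted near the level of the mix. All 9 tested factors had intervals that held the mix, with a median of 0.03. Not all of them set the single classes apart. *Nkx2-2* was at 81.0 CPM in single beta and 81.4 in single alpha barcodes, and *Pax6* at 186 and 171. *Isl1*, also on the alpha list of factors, was at 179 and 368. A gene near equal in both classes lies near any mix of them. *Mafa* was at 322 CPM in double barcodes, against 539 in single beta and 25.8 in single alpha barcodes, and its 281 UMIs compare with 276 from the mix. *Nkx6-1* had 253 UMIs (223 to 286) against 229 and *Pdx1* 113 (93.1 to 136) against 112. *Ucn3* and *Slc2a2*, genes of mature beta cells, were too low to test. *Ucn3* had 16 UMIs (9.15 to 26.0) in all double barcodes against 9.87 from the mix, and *Slc2a2* 8 (3.45 to 15.8) against 3.32.

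Of 16 tested genes of the alpha list, 0 were called (0.654% of all tested genes were), with a median of 0.02, and the mix lay inside the interval for 14. *Ttr*, which encodes the thyroid hormone carrier transthyretin, was at 12930 CPM in double barcodes, 29019 in single alpha and 1550 in single beta barcodes, and its 11287 UMIs (11080 to 11497) compare with 11754 from the mix. *Pyy*, a peptide hormone gene, was at 14913 CPM against 16118 from the mix, a ratio of -0.11. *Higd1a*, at 554 CPM in single alpha and 4.80 in single beta barcodes, had 206 UMIs (179 to 236) against 212.

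The Iroquois factors of alpha cells, *Irx1* and *Irx2*, had intervals that held the mix. *Irx1* had 63 UMIs (48.4 to 80.6) against 71.8 and *Irx2* 74 (58.1 to 92.9) against 67.2, ratios of -0.19 and 0.14. *Irx2* was at 84.8 CPM in double barcodes, between 174 in single alpha and 2.88 in single beta barcodes.

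**Figure D4:**
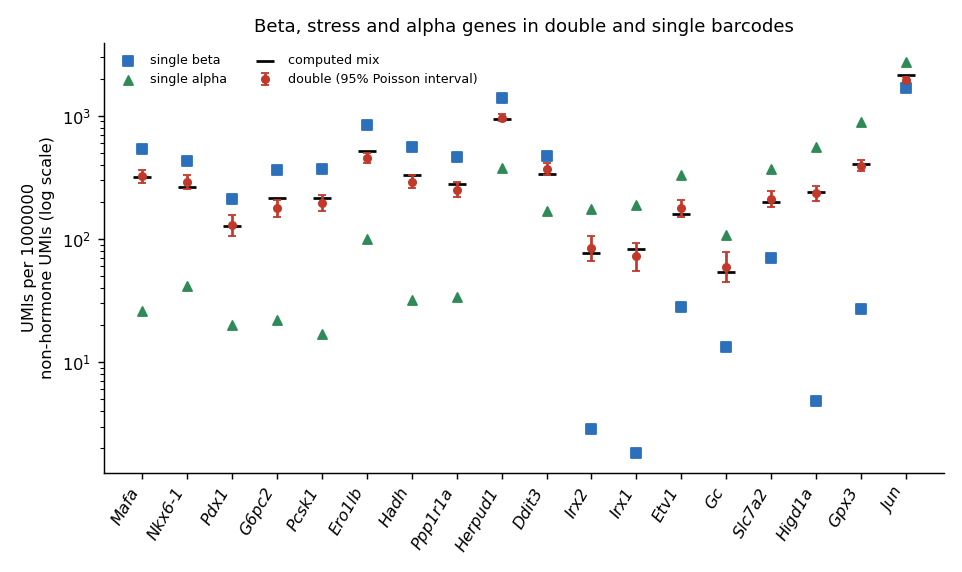
Level of beta, stress and alpha genes in CPM of non-hormone UMIs (log axis) in single beta (squares), single alpha (triangles) and double barcodes (red points with 95% Poisson intervals), with the computed mix as black bars. Red points stay near the black bars, between both single classes, from *Mafa* (322 against 316) to *Jun* (1960 against 2142).

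A beta and an alpha factor were also read in the same droplets. *Pdx1* was detected in 94 of 431 double barcodes and *Irx2* in 67, and 19 held both, where the product of the shares gives 14.6. Detection follows the depth of a droplet, which this product leaves out.

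Genes of stress programmes had small ratios to the mix. Of 11 tested genes of the integrated stress response 0 were called, against 0.654% of all tested genes, with a median of 0.01, and the interval held the mix for 9. *Ddit3*, which encodes CHOP, was at 371 CPM in double barcodes, 470 in single beta and 169 in single alpha barcodes, against 340 from the mix. *Cebpg* was lowest of this list at -0.38, with 60 UMIs (45.8 to 77.2) against 77.9. Of 17 tested ER chaperone and degradation genes, all had intervals that held the mix. *Hspa5*, the ER chaperone BiP, had 2091 UMIs against 2138, and *Herpud1*, which acts in ER-associated degradation, 842 against 831.

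Immediate early and heat shock genes lay a little under the mix. For AP-1 and immediate early genes the median was -0.08 over 11 tested genes and 0 were called; *Atf3* had 347 UMIs (311 to 386) against 437, and *Jun* 1711 (1631 to 1794) against 1870. For 10 heat shock genes the median was -0.12, again with 0 called. *Hspb1* was farthest, with 976 UMIs (916 to 1039) against 1217 and a ratio of -0.32, and *Hspa1a* followed at -0.29. *Hspa1b*, *Fos*, *Egr1*, *Hspa8* and *Hsp90aa1* lay under the mix beyond their intervals too. *Fos* had 2317 UMIs against 2452 and *Hsp90aa1* 2257 against 2572. Of these genes, *Hspb1*, *Hspa1a*, *Hspa1b*, *Atf3* and *Jun* were higher in single alpha barcodes and *Fos*, *Egr1*, *Hspa8* and *Hsp90aa1* in single beta barcodes.

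The fit was also made with each single class in 2 sets. Split at the median *Jun* share, alpha barcodes above it made up 42.6% of the fitted alpha part and 51.2% of the UMIs of single alpha barcodes, while beta barcodes above the median *Herpud1* share made up 53.5% of the beta part and 52.1% of the UMIs of single beta barcodes. This split was chosen after the data were seen.

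In the groups of this paragraph no tested gene was called, apart from *Cldn7*, which is on the cell contact and ductal lists. It was the only gene called of 4 tested on the cell contact list and of 3 on the ductal list, against 0.654% of all tested genes. All 15 genes of prohormone processing and granules were tested and 0 were called, with a median of -0.02, from *Scg2* (a granin) at -0.19 to *Pam* (a peptide-amidating enzyme) at 0.15. *Pcsk2*, the convertase that cuts glucagon from its precursor in alpha cells, had 2019 UMIs against 2023. Mitochondrially encoded genes had a median of 0.09 over 12 genes, with *mt-Nd1* highest at 0.18. The interval held the mix for 5 of the 12, and the others lay above the mix beyond their intervals. Of 10 tested genes whose regulons the study names, 0 were called. *Chd2*, a chromatin remodeller, was lowest of these, with 41 UMIs (29.4 to 55.6) against 59.3, and *Foxp1*, a forkhead factor, had 85 (67.9 to 105) against 72.5. No gene was called among 4 tested p53 targets (median 0.17), 10 metallothionein and antioxidant genes (0.02), 2 antigen presentation genes (0.05) or 3 TFIID subunits (0.02).

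Of the 11 listed progenitor and dedifferentiation genes only 2 reached the count minimum. *Sox4*, a factor of endocrine progenitors, had 52 UMIs (38.8 to 68.2) against 35.8, a ratio of 0.54 with the level in double barcodes under that of single alpha barcodes. It reached the minimum only through its count in double barcodes, so the filter itself favoured a high ratio. *Cd81* had 209 (182 to 239) against 181. *Neurog3*, the factor that starts endocrine differentiation, had 2 UMIs in all double barcodes and *Aldh1a3* 0, which allows up to 3 counts. None of the 11 listed genes disallowed in mature beta cells that the table holds was tested. Together they had 36 UMIs, of which 28 were *Oat* (30.6 from the mix), so the other 10 genes had 8 (5.43 from the mix).

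The 7 genes above the mix had low counts, between 50 and 114 UMIs. Of these 7, 5 reached the minimum of 50 only through their count in double barcodes, and of the 10 genes below the mix 7 reached it only through the mix, so for these 12 the filter itself favoured the direction. *Pde10a*, *Gstm5*, *AY036118*, *Cela2a* and *Cela3b* reached it on both sides. *Chmp2b*, a subunit of the ESCRT-III membrane complex on chromosome 16 from 65539128 to 65562762 (GRCm38), had 56 UMIs (42.3 to 72.7) in double barcodes where the mix gave 32.3, a ratio of 0.79. Its level of 64.2 CPM stood above single beta (34.5) and single alpha barcodes (40.4). *Ccnc*, which encodes cyclin C, had 54 (40.6 to 70.5) against 31.4, and *Pde10a*, a cyclic nucleotide phosphodiesterase, 114 (94.0 to 137) against 72.1. *Gstm5*, a glutathione transferase on chromosome 3 from 107895854 to 107898685, had 81 (64.3 to 100.7) against 52.99. *Ift22*, *Utp11* and *Vwde* followed with ratios between 0.59 and 0.60. The next in order, *Inafm1*, *Ubald2*, *Sox4*, *Tmed8* and *Mrps23*, stood between 0.53 and 0.57 and were not called.

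Only 2 genes, *Chmp2b* and *Gstm5*, passed 1.5-fold above both single classes (0.0769% of genes tested), and 2, *Cldn7* and *Fam204a*, passed it below both (0.0769%). Of these 4 only *Gstm5* reached 50 UMIs on both sides. *Gstm5* was at 92.8 CPM in double barcodes, 60.3 in single beta and 61.2 in single alpha barcodes. *Cldn7*, a claudin of tight junctions, was at 45.8 against 76.2 in beta and 68.8 in alpha barcodes. *Fam204a* was at 51.6 against 80.2 and 79.4.

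Of the 10 genes below the mix, 4 are on the acinar list (*Cela2a*, *Cela3b*, *Cpa1* and *Clps*), and *Zg16* and *Cela1*, grouped with them after the values were seen, are also expressed in acinar cells. *AY036118* was lowest, with 223 UMIs (195 to 254) against 456 from the mix, a ratio of -1.03; the ratio was -1.56 in double barcodes above their median depth and -0.42 in those at or below it. *Zg16* (a zymogen granule protein), *Clps* (colipase), *Cpa1* (carboxypeptidase A1) and the elastase genes *Cela2a*, *Cela3b* and *Cela1*, all genes of the acinar cells that make digestive enzymes, lay between -0.59 and -0.81. *Uggt1*, an ER enzyme of glycoprotein quality control, had 33 UMIs (22.7 to 46.3) against 55.6. With *Cldn7* and *Fam204a* these are the 10. The next in order, *2210010C04Rik* and *Mat2b*, stood at -0.57 and -0.56 and were not called.

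Counted per droplet, acinar transcripts were about as many in double as in single barcodes. Of the 9 tested genes of the acinar list 4 were called lower (0.385% of all tested genes were) and 0 higher, with a median of -0.49; 2 of the 4, *Cpa1* and *Clps*, are among those that reached the minimum only through the mix. The list summed to 3.18 UMIs per barcode in double, 2.79 in single beta and 3.29 in single alpha barcodes, and none of its 10 genes was at 0. *Clps* was at 0.114 UMIs per barcode (0.0841 to 0.150) in double, 0.127 in single beta and 0.147 in single alpha barcodes, and *Try4* at 0.536 (0.469 to 0.610), 0.478 and 0.567. *AY036118* was at 0.517 per double barcode (0.452 to 0.590), 0.604 per single beta and 0.862 per single alpha barcode. The part of free RNA in these values was not tested.

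Other cell types left few transcripts in double barcodes. The endothelial, mesenchymal, macrophage, and T and B cell lists had 26, 15, 51 and 2 UMIs over all 431 barcodes. The mix gave 29.5, 9.66, 46.1 and 3.07, and no gene of these lists reached 50. *C1qa* held 46 of the 51 macrophage UMIs (39.1 from the mix). *Flt1* and *Sparc*, the most counted of the endothelial and mesenchymal lists, had 9 each (6.25 and 3.34 from the mix). *Pecam1*, *Cdh5*, *Col1a1*, *Col3a1*, *Lyz2* and *Tyrobp* were at 0. Haemoglobin genes had 5 UMIs where the mix gave 46.7, and 0.147 UMIs per single beta barcode. The delta list without *Sst* had 1075 UMIs against 1131 from the mix, of which 758 were *Rbp4* and 255 *Hadh*, which the beta list also holds. Cell cycle genes had 55 UMIs against 50.5, with *Mki67* and *Ccna2* at 0.

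The called genes depended on few counts. Within double barcodes above their median depth, 5 of the 17 were called again. Within those at or below it 0 were, where 783 genes could be tested. Of the 17, only *AY036118* (123 UMIs) was counted at 50 or more in that shallower set, so the count minimum largely fixed this 0. In the deeper set most of the 17 were counted under 50 too. The ratio had the same direction in both sets for 16 of the 17, which were themselves chosen on both sets together. *Clps* was at -1.07 in the deeper and -0.36 in the shallower set, *Utp11* at 0.80 and 0.07, and *Vwde* at 0.89 and -0.07. With the stricter class limits (*Ins2* at 20% and *Gcg* at 10%) 3 of the 17 were called again, and with the looser ones (10% and 3%) 5. With a minimum of 200 UMIs in place of 50, 1 of 575 genes was called, *AY036118*, and *AY036118* alone also passed 2-fold.

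The single beta and alpha parts varied from droplet to droplet. Fitted barcode by barcode, the beta share of non-hormone UMIs had a median of 50.02% in double barcodes (quartiles 34.4 and 67.8%) and lay between 20 and 80% in 363 of 431 (84.2%). It did so in 221 of 5307 single beta barcodes (4.16%) and in 41 of 2817 single alpha barcodes (1.46%), whose own summed profiles served as the parts. In single beta barcodes the median was 100% and in single alpha barcodes 0%. Multiplied by depth, the beta part had a median of 925 UMIs, 61.4% of the median single beta barcode (1506), and the alpha part 840, 84.6% of the median single alpha barcode (993). In 253 double barcodes (58.7%) both parts reached the 5th percentile of their single class, which is 565 UMIs for beta and 507 for alpha.

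**Figure D5:**
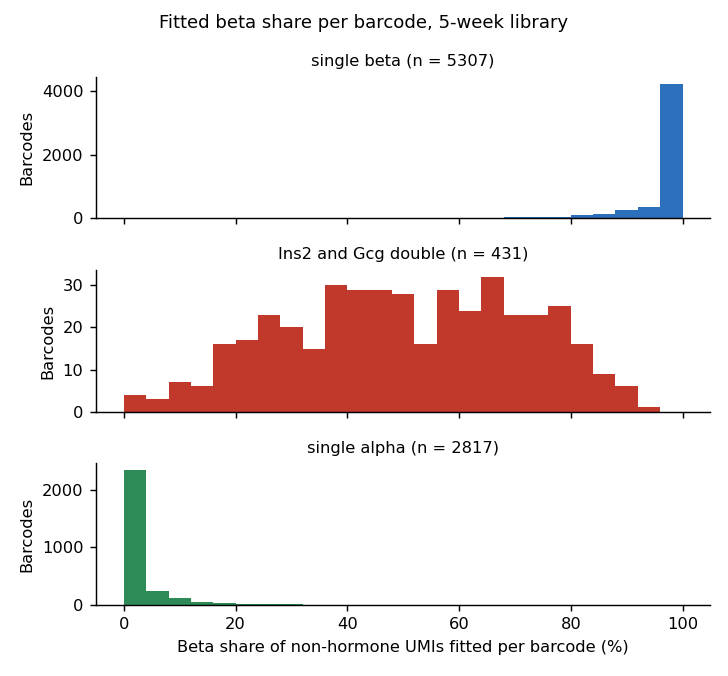
Number of barcodes (y axis) by the beta share of non-hormone UMIs fitted to each barcode (x axis, %), for single beta (top), double (middle) and single alpha barcodes (bottom). Double barcodes spread over the range with a median of 50.02%, while single barcodes gather at the ends.

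The fitted share fell as *Gcg*, which is not in the fit but chose the class, rose. In 4 sets of 107 or 108 double barcodes ordered by *Gcg*, from 5.09 to 9.18%, 9.22 to 13.9%, 13.9 to 19.6% and 19.6 to 42.6% of UMIs, the beta share of the summed non-hormone UMIs was 75.5, 60.2, 47.2 and 32.3%. Depth went with it, at medians of 5811, 4600, 4060 and 3104 UMIs. In 4 sets ordered by UMIs the beta share was 37.9, 46.0, 56.1 and 65.6% from the shallowest to the deepest. The 108 shallowest barcodes, with at most 2680 UMIs, had a median of 1607 UMIs and 4.19% mitochondrial UMIs, and the 108 deepest had 7379 UMIs and 2.85%.

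*Ins1* in double barcodes was low, as in the single beta barcodes of the same library. *Ins1* UMIs made up 3.55% (3.51 to 3.59) of *Ins1* and *Ins2* UMIs in double barcodes, 3.78% (3.77 to 3.79) in single beta and 3.52% (3.43 to 3.61) in single alpha barcodes. In the other tables the share in single beta barcodes was 26.0% in WT and 7.69% at 1 week, and in their 13 and 8 double barcodes 15.9% and 3.16%. *Taf4* itself had 7 UMIs in double barcodes, 8.02 CPM (3.22 to 16.5), against 8.82 (7.11 to 10.8) in single beta and 7.61 (4.82 to 11.4) in single alpha barcodes. In single beta barcodes it was at 11.5 (9.05 to 14.4) in WT and at 12.1 (9.48 to 15.2) at 1 week. The assay reads the 3′ end of transcripts, which may lie outside the deleted part, so these counts do not check the deletion.

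Other pairs of hormones were also counted. Set against the product of the single classes, double barcodes of insulin and glucagon numbered 28.8 (26.2 to 31.7) per 1000000 possible pairs of a beta and an alpha barcode. Barcodes with *Ins2* at 15% or more, *Sst* at 5% or more and *Gcg* under 1% numbered 158. These *Ins2* and *Sst* barcodes came to 26.3 (22.3 to 30.7) per 1000000 pairs of beta and delta barcodes. Those with *Gcg* at 15% or more, *Sst* at 5% or more and *Ins2* under 10% numbered 73. These *Gcg* and *Sst* barcodes came to 22.9 (17.9 to 28.8) per 1000000 pairs of alpha and delta barcodes. The intervals of these 3 rates overlap, but the classes have unlike limits, so the rates are not like measures. They also rest on those limits. The insulin and glucagon rate was 17.2 (15.2 to 19.4) with the stricter limits and 41.6 (38.4 to 45.0) with the looser ones. A further 86 barcodes held all 3 hormones under a lower *Sst* limit. They had *Ins2* at 15% or more, *Gcg* at 5% or more and *Sst* at 1% or more, with a median *Sst* of 2.33%. Fitted in the same way to a mix of beta and delta barcodes, the *Ins2* and *Sst* barcodes had 6 of 770 genes higher (0.779%) and 5 lower (0.649%). Of the 17 genes off the mix of beta and alpha barcodes only *AY036118* and *Cela2a* could be tested there, and *AY036118* was called, at -0.92. *Clps* stood at -0.83 and *Cldn7* at -0.55 with too few counts to test. *Chmp2b* had 6 UMIs there against 10.0 and *Gstm5* 17 against 17.5, under the minimum of 50.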

How the data were processed

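Islets were dissociated with Accutase, live cells were sorted by flow cytometry, and 3 libraries, 1 per condition, were made with the 10X Genomics Chromium 3′ assay. As deposited, the values are raw UMI counts per gene and barcode, which the authors made with CellRanger (Cell Ranger 3.1 in the processing notes, beside bcl2fastq 2.17.1.14 and Seurat 3.1.4) on mm10. In WT only they removed cells with hormones of more than 1 class and doublets, and scaled the library to 12000 cells. The 5-week table held 11229 barcodes, 15959 genes and 39408284 UMIs. All barcodes were used, and no doublet caller was run.

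UMIs were summed over each class. The weight of the computed mix was the multinomial maximum-likelihood fit to all genes but *Ins1*, *Ins2*, *Gcg* and *Sst* (Python 3.11.15, numpy 2.4.6, scipy 1.17.1, figures with matplotlib 3.10.9), tested on simulated data. As abundant genes can pull this fit, the weight was also read gene by gene. Poisson and Clopper-Pearson intervals (95%) cover the count of the double barcodes and not that of the mix, and for 0 counts the 1-sided limit of 3 is given. Coordinates are RefSeq's on GRCm38.p6. With 1 library per condition no test was made.

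Named genes are the 12 highest and 12 lowest ratios to the mix, those outside both single classes, members of fixed lists, and genes the study names. The class, its limits and the lists were chosen with earlier results of these data known. Genes named as the extreme of a list, *Foxp1* and the listed genes at 0 were picked after their values were seen. Alternatives covered the class limits, the scale, the weight, count filters, the fold, thinning, depth and the parts of the mix. Some genes of the lists are not reported here.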

Additional observations from a re-analysis of the deposited data

How the results depend on the processing

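The beta share, 56.6% of non-hormone UMIs as reported, ran from 43.4% to 61.9% over 15 other settings. It was 43.4% in double barcodes at or below their median depth and 61.9% above it, 48.5% with *Ins2* at 20% and *Gcg* at 10%, and 59.7% with 10% and 3%. With all UMIs on the scale it was 66.1% of all UMIs, to be set against 65.0%. It was 56.4% without 8 hormone genes, 55.3% without mitochondrial genes, 57.9% from *Ins2* and *Gcg*, 55.5% from the beta and alpha lists, 57.2% with purer singles and 54.6% within 200 to 1500 genes and under 15% mitochondrial UMIs. The mean of barcodes and thinning to 1000 UMIs (23 double barcodes left out) each gave 53.2%, singles split by depth 57.1%, and the split by *Herpud1* and *Jun*, chosen after the data were seen, 56.8%. Delta barcodes as an added part left 56.6%.

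The 17 genes off the mix became 9 with the stricter class (3 of them among the 17) and 18 with the looser one (5 among the 17), 42 with the mean of barcodes, 1 with a minimum of 200 UMIs, 1 at 2-fold, 2 after thinning, 6 in the shallower double barcodes and 3044 of 12883 without a count filter. The 4 genes outside both singles became 1594 without the filter, 7 with the mean of barcodes, 2 each with purer singles, the limits on genes or all UMIs, 1 without 8 hormone genes, and 0 with the stricter class, 200 UMIs, 2-fold, thinning or the shallower barcodes. *Pde10a* turned to -0.13 and *Vwde* to -0.15 after thinning, and *Vwde* to -0.073 in the shallower barcodes; the cause was not tested.

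The stricter class held 257 barcodes and the looser one 622, with 66.8% of the summed median depth, and the *Ins1* share was 3.40% in the stricter class, 3.61% within the limits and 3.31% as a mean of barcodes. No paired analysis was possible because each condition was 1 library. At 50 UMIs the counting interval runs from 37.1 to 65.9, and no spread between animals is known.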
